A study of Homo sapiens with 24 samples.

Results

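The 33 genes described here carry glucose into the cell, split it to pyruvate, exchange lactate, and admit pyruvate to the mitochondrion. They were taken by symbol from a list of pathway members, chosen with earlier results of these data known. All 33 were found among the 21831 genes of the deposited tables. They comprised 4 transporters (SLC2A1, SLC2A3, SLC16A1, SLC16A3), 17 enzymes from hexokinase to lactate dehydrogenase, 7 regulators (PFKFB2, PFKFB3, PFKFB4, TIGAR, PDK1, PDK2, PDK3) and 5 genes of pyruvate entry (PDHA1, PDHB, DLAT, MPC1, MPC2). RNA was sequenced from HBL1, an established human lymphoma line of the activated B-cell (ABC) subtype of DLBCL, diffuse large B-cell lymphoma. Cultures received dimethyl fumarate (DMF) at 20 µM in DMSO, or DMSO alone as control, and were taken at 6, 12, 24 and 48 h. Each of the 8 groups had 3 libraries, which makes 24. All cultures shared the same medium, RPMI-1640 with 20% fetal calf serum, and came from 1 cell line.

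Glycolysis converts glucose to pyruvate in the cytosol. Its pace is set by glucose uptake, by hexokinase and by phosphofructokinase, which fructose 2,6-bisphosphate activates. The PFKFB enzymes make and remove that activator, and TIGAR removes it. Pyruvate is then either reduced to lactate by lactate dehydrogenase and exported with protons by monocarboxylate transporters, or moved into mitochondria by the MPC1-MPC2 carrier and oxidised by the pyruvate dehydrogenase complex, which the PDK kinases switch off. Many genes of the pathway are known targets of the hypoxia-inducible factors and of MYC. DMF is an electrophilic ester that modifies cysteine residues, among them a cysteine in the active site of the glycolytic enzyme GAPDH.

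The shallowest library, DMF 48 h replicate 1, held 2870751 expected counts, and the other totals lay between 23097873 and 40906596. At 12 h, replicate 3 of either treatment differed from all other libraries. Their mean effective transcript length was 1902 and 2121 bases, against 2850 to 3157 in the other 22, and ribosomal protein genes took 19.05% to 24.19% of their counts, against 8.0% to 12.81%. GAPDH, for example, had 7490, 7360 and 26400 CPM (counts scaled to library size) in the control libraries of 12 h. Results are therefore given from all 24 libraries, with those from the other 22 beside the main ones. The 7 B cell markers were detected in every library, with a sum of 6260 to 6520 TPM in DMF at 48 h and 4030 to 4130 TPM in control. Of the markers of other cells, the 6 of T and NK cells summed to at most 0.8 TPM and the 4 epithelial ones to 2.23 to 6.82 TPM, where EPCAM, KRT8 and KRT18 were detected in every library. CDH1, VWF and HBB were at 0 in 15, 16 and 23 of the 24 libraries, and HBA1 reached 4.14 TPM. The 5 fibroblast and endothelial markers summed to 19.1 to 21.8 TPM in DMF at 48 h and 6.99 to 9.31 TPM in control, mostly through PECAM1, and to 5.84 to 6.13 and 10.9 to 12.2 TPM at 6 h. The 4 myeloid markers summed to 7.33 to 8.67 TPM in DMF at 24 h and 9.73 to 11.2 TPM in DMF at 48 h, against at most 4.78 TPM in every other group, mostly through CD68. The part of these differences in the results below was not tested. In bulk RNA, fewer cells of a kind and less RNA per cell cannot be told apart. The labels do not say whether replicates were separate cultures, so p-values measure only the spread between libraries, which may be technical.

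The 7 promoters below are shown because their genes were those whose response to DMF differed between 6 and 48 h in the fit of all 24 libraries. The sequences are the 250 bases before the RefSeq transcript start on GRCh38.p14, written 5′ to 3′ on the strand of the gene. Capitals mark ACGTG or its reverse complement CACGT, a form of the core of the hypoxia response element. That core can also begin with G, and GCGTG was not searched.
PGK1 (chrX:78103998-78104247, plus strand): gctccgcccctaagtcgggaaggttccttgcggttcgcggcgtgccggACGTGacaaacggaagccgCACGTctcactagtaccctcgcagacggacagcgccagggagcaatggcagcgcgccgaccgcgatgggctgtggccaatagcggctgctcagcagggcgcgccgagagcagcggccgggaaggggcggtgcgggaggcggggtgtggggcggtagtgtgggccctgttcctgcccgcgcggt
ENO2 (chr12:6914330-6914579, plus strand): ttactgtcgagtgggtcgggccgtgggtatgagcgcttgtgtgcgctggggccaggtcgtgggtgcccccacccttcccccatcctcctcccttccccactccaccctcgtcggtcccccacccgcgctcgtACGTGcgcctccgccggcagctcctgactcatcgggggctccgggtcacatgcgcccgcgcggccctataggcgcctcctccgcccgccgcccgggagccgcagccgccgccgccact
PDK1 (chr2:172555840-172556089, plus strand): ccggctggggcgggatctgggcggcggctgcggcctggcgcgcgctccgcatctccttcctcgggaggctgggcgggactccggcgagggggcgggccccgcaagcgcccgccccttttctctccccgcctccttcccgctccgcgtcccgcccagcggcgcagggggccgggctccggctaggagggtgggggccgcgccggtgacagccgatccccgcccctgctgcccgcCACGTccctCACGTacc
TIGAR (chr12:4320963-4321212, plus strand): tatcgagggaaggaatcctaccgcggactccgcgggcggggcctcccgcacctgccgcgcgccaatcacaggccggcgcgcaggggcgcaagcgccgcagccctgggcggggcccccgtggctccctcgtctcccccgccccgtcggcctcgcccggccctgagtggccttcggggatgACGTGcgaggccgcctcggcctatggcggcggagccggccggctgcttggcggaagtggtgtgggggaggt
PFKFB4 (chr3:48556804-48557053, minus strand): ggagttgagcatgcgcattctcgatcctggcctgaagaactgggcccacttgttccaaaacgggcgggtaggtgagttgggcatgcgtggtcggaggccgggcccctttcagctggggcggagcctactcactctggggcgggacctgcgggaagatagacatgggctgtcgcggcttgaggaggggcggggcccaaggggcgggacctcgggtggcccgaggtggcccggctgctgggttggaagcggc
PGAM1 (chr10:97427568-97427817, plus strand): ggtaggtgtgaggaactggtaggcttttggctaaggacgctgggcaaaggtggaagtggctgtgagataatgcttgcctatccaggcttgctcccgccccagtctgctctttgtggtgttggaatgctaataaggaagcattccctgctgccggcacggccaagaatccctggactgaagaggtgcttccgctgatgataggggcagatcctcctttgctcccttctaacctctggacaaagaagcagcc
MPC1 (chr6:166382941-166383190, minus strand): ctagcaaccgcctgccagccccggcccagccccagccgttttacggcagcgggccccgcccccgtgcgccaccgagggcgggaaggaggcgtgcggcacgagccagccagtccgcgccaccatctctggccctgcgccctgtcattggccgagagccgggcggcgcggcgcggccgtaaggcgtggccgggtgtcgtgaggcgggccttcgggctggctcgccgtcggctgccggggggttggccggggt
ENO2 and TIGAR each held 1 match, at 118 and 71 bases before the start. PGK1 and the PDK1 start shown held 2 each, and the other RefSeq start of PDK1 held none. PFKFB4, PGAM1 and MPC1 had no match to ACGTG in this window, which does not exclude GCGTG. The windows of PGAM1 and PFKFB4 lie inside their GENCODE gene spans (chr10:97426160-97433441, plus strand, and chr3:48517684-48562015, minus strand). The sequence before the first start of those 2 spans was not searched. Among the members, 30 of 33 had a RefSeq promoter, with 60 starts between them, and SLC2A3, SLC16A1 and PFKFB2 had none in the table. ACGTG, searched on both strands, occurred at 22 of the 60 starts (36.7%) and in 19 of the 30 genes, against 18.5% of 35116 RefSeq promoters of the same length. CACGTG, the E-box bound by MYC, which contains ACGTG, occurred at 8 starts (13.3%), against 6.34%. TGACNNNGC, the core of the antioxidant response element bound by NRF2, occurred at 6 starts (10%), MPC1 among them, against 10.9%. Starts of 1 gene can overlap, and a match is a description of the sequence alone.

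In the fit of all 24 libraries, few of the 33 genes were called up to 24 h, and 15 at 48 h, mostly lower in CPM. Few calls there do not mean few changes, since the 22 libraries called more members at each time. At 6 h, 2 members rose and 2 fell, where 5.03% and 5.59% of the 13419 genes tested did so. At 12 h, 4 rose and 2 fell (7.37% and 9.95% of genes tested). At 24 h, 2 rose and 2 fell (7.81% and 6.6%). At 48 h, 4 rose and 11 fell (13.3% and 12.5%). The 11 were the transporter SLC2A3, the enzymes ALDOC, ENO2, HK1, LDHA, LDHB, PGAM1 and PGK1, and the regulators PDK1, PDK3 and PFKFB4, and the 4 that rose were MPC1, MPC2, PFKFB2 and TIGAR. The median log2 fold change of the members was 0.11, 0.05, 0.03 and -0.14 at the 4 times, beside 0.0, -0.05, 0.01 and 0.02 over all genes tested. All 33 passed the low-count filter. The lowest expected counts in any library were 4 for SLC2A3 and 19 for PFKFB2.

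The 22 libraries gave more calls at each time. Their common dispersion, the spread shared by all genes, was 0.00212, against 0.0521 with all 24. They called 15 members higher and 4 lower at 6 h (23.8% and 23.4% of 13606 genes), 13 and 6 at 12 h (24.1% and 23.8%), 12 and 7 at 24 h (29.5% and 27.9%), and 9 and 18 at 48 h (33.6% and 30.9%). Counted without a model, all 3 DMF libraries lay above all 3 controls in CPM for 22 members at 6 h and below them for 5, where 30.2% and 29.6% of genes did so. At 12 h, without the replicate 3 libraries, 14 lay above and 9 below (36.9% and 36.8%), and at 24 h 12 and 7 (32.1% and 31.8%). By 48 h the order was the opposite of that at 6 h, with 8 members above (30.6% of genes) and 18 below (30.2%).

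These splits depended on how libraries were scaled. CPM here are scaled by the trimmed mean of M-values (TMM), which sets most genes near no change. TPM, which fixes the sum of each library, moved the median gene to -0.1 at 6 h and 0.17 at 48 h on the log2(TPM + 1) scale. In TPM, 8 members lay above control in every library at 6 h and 11 below, where 14.9% and 46.2% of genes did so. At 24 h, 10 lay above and 9 below (27.1% and 35.3%), and at 48 h 14 above and 9 below, where 46.6% and 15.7% did. With limma on log2(TPM + 1) in the 22 libraries, 4 members were called higher and 6 lower at 6 h (10.2% and 35.2% of genes), 5 and 11 at 12 h (11.4% and 27.7%), 10 and 9 at 24 h (21.7% and 28.4%), and 16 and 9 at 48 h (48.8% and 17.5%). Of the 11 members that fell at 48 h, 7 were also called lower there (ALDOC, ENO2, LDHB, PDK1, PFKFB4, PGK1 and SLC2A3), and all 4 that rose were called higher. HK1, LDHA, PGAM1 and PDK3 were not called in TPM. With all 24 libraries in TPM, 6 members were called higher and 5 lower at 48 h (18.4% and 7.26% of genes), and of the 11 only SLC2A3, ALDOC and PFKFB4 were among the 5. When only the 12 h groups were fitted, none of the 6 calls of 12 h was made, and 0% of genes were called. With the replicate number as a block in that fit, SLC2A1, MPC2 and PDHB were called as before (adjusted p = 0.045, 0.0084 and 0.024), PFKP, PGK1 and PGAM1 were not (0.14, 0.063 and 0.16), and SLC16A1 was called higher (log2 0.37, 0.043) and PDK1 lower (log2 -0.40, 0.035), beside 10.5% of genes higher and 14.6% lower.

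**Figure D1:**
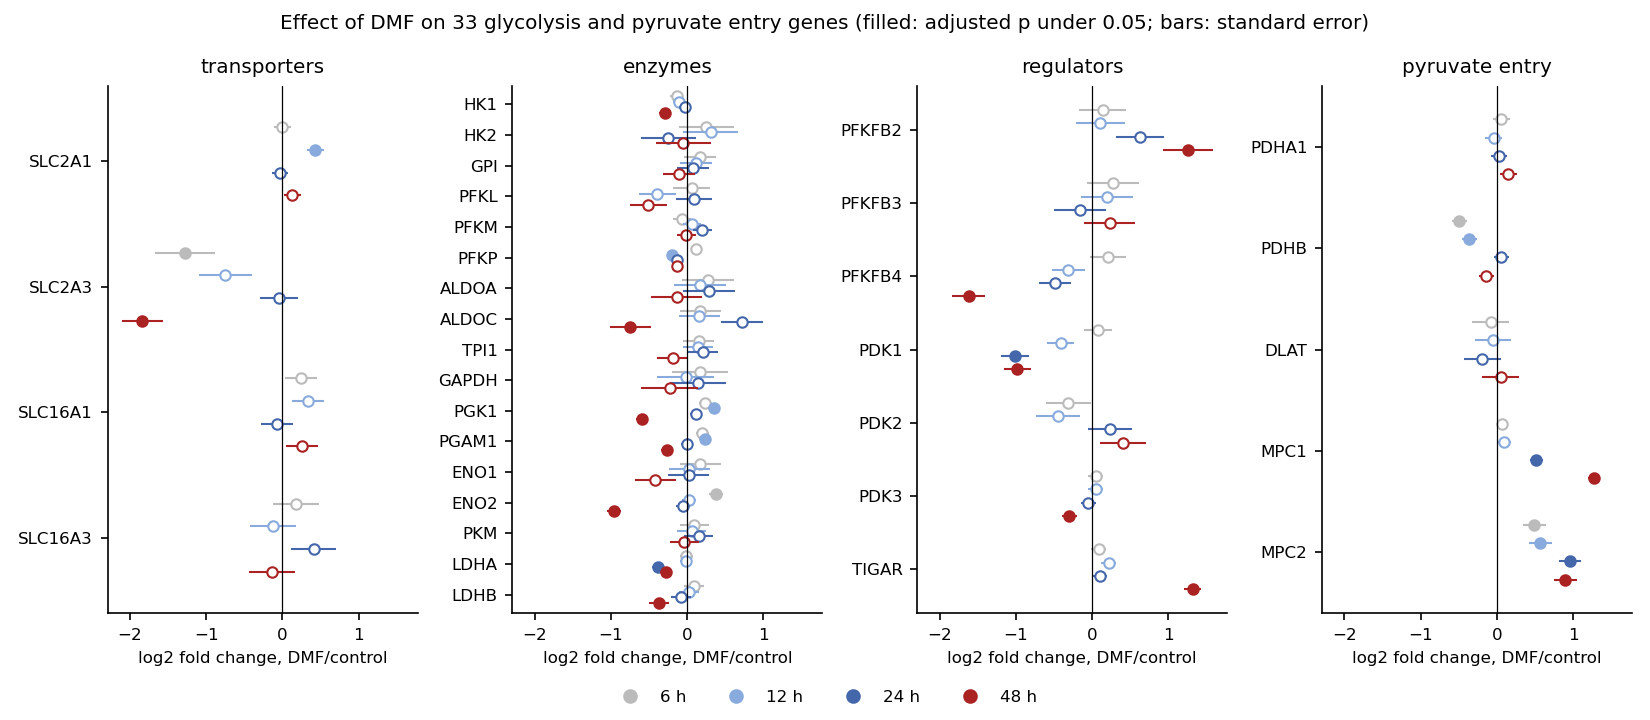
Log2 fold change of DMF against control in CPM (horizontal axis) for each of the 33 genes (rows), at 6, 12, 24 and 48 h (colours), with standard errors as bars and filled points for adjusted p under 0.05. Points at 6 to 24 h lie mostly within 0.5 of no change, and at 48 h PFKFB4 and SLC2A3 lie farthest left and TIGAR, MPC1 and PFKFB2 farthest right.

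Among the transporters, the high-affinity glucose carrier SLC2A3 (GLUT3, GRCh38 chr12:7919230-7936275, minus strand) fell at 6 and 48 h, SLC2A1 rose at 12 h, and SLC16A1 and SLC16A3 were not called at any time with all 24 libraries. SLC2A3 had 5.82, 4.75 and 5.72 CPM in control at 48 h and 1.22, 1.66 and 1.46 CPM in DMF. The groups did not overlap, and the fall was 3.58-fold (log2 -1.84, SE 0.27, adjusted p = 4e-05, edgeR). At 6 h the levels were 0.262, 0.636 and 0.332 CPM in control and 0.122, 0.165 and 0.195 CPM in DMF. That fall (log2 -1.28, SE 0.39, adjusted p = 0.038) rested on few counts and was not called without any of 5 single libraries, which were control 6 h replicates 2 and 3 and each DMF library of 6 h (highest adjusted p = 0.34). DESeq2 (adjusted p = 0.051), the fit with no low-count filter (0.057), the one with a replicate block (0.053) and TPM (0.58) did not call it either. Reads of SLC2A3 and of its close copy SLC2A14 may not be separable.

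SLC2A1 (GLUT1), the widely expressed basal glucose carrier, was by far the more abundant, with 28.1 ± 0.271 TPM in control at 6 h (SD, n = 3) against 0.177 ± 0.0833 TPM for SLC2A3. At 12 h it had 57.9, 59.5 and 41.5 CPM in control and 68.9, 73.3 and 72.2 CPM in DMF, and every DMF library was above every control. SLC2A1 rose 1.35-fold (log2 0.43, SE 0.11, adjusted p = 0.0071), and 1.22-fold (log2 0.28, adjusted p = 0.001) in the 22 libraries, where TPM gave no call (log2 0.16, adjusted p = 0.13). By 48 h it had 88.4, 80.8 and 81.3 CPM in control and 90.0, 88.7 and 95.8 CPM in DMF, which all 24 libraries did not call (log2 0.13, adjusted p = 0.42) and the 22 did (log2 0.14, adjusted p = 0.027).

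SLC16A1 (MCT1) moves lactate and pyruvate in either direction, and SLC16A3 (MCT4) mainly exports lactate. SLC16A1 had 152, 151 and 138 CPM in control at 48 h and 177, 176 and 174 CPM in DMF. All DMF values were above control, as they were at 6 h (235 to 244 against 279 to 286 CPM), but all 24 libraries gave no call (log2 0.26, SE 0.21, adjusted p = 0.44). The 22 libraries called it at 48 h (log2 0.26, adjusted p = 9.1e-07), at 6 h (log2 0.24, adjusted p = 3.7e-06) and at 12 h (log2 0.28, adjusted p = 6.9e-06). At 24 h the order was the opposite, with 206, 216 and 207 CPM in control and 200, 199 and 199 CPM in DMF. There the 22 libraries gave no call in CPM (log2 -0.07, adjusted p = 0.088) and called SLC16A1 lower in TPM (log2 -0.12, adjusted p = 0.0099). SLC16A3 had 117, 147 and 105 CPM in control at 24 h and 159, 172 and 158 CPM in DMF, again without overlap and called in the 22 libraries only (log2 0.41, adjusted p = 0.00033). At 48 h its groups overlapped, with 341, 417 and 375 CPM in control and 322, 343 and 366 CPM in DMF.

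At 48 h, 7 of the 17 enzymes fell and 0 rose in edgeR, where 12.5% and 13.3% of genes tested did so. DESeq2 called 5 lower and 0 higher, and at an unadjusted p under 0.05 in edgeR 0 were higher. The median log2 fold change of the 17 was -0.27. In TPM the summed share of the 17 enzymes was 3.45% ± 0.0479 of all transcripts in control and 3.42% ± 0.157 in DMF (SD, n = 3). The clearest fall was that of ENO2, the neuronal enolase isoform (GRCh38 chr12:6913745-6923698, plus strand). ENO2 had 300, 322 and 329 CPM in control at 48 h and 153, 164 and 173 CPM in DMF. Each DMF value was well under each control value, a 1.94-fold fall (log2 -0.96, SE 0.09, adjusted p = 3.4e-07). At 6 h the order was the opposite, with 62.2, 68.3 and 58.4 CPM in control and 74.1, 84.3 and 87.3 CPM in DMF. ENO2 rose there (log2 0.38, SE 0.09, adjusted p = 0.01), a call lost without control 6 h replicate 3 or DMF 6 h replicate 3 (highest adjusted p = 0.061). At 12 and 24 h the groups overlapped (log2 0.02 and -0.06).

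PGK1, which makes the first ATP of the pathway, was also higher in DMF early and lower late. It had 1540, 1480 and 1500 CPM in control at 6 h and 1780, 1740 and 1840 CPM in DMF, without overlap but not called (log2 0.24, SE 0.08, adjusted p = 0.058; 1.7e-06 in the 22 libraries). At 12 h it had 1240, 1300 and 1350 CPM in control and 1540, 1540 and 1860 CPM in DMF, a rise of log2 0.35 (SE 0.08, adjusted p = 0.0041) that was not called without control 12 h replicate 1 (adjusted p = 0.06). The 48 h values were 2400, 2430 and 2310 CPM in control and 1590, 1580 and 1580 CPM in DMF. The fall was 1.5-fold (log2 -0.59, SE 0.08, adjusted p = 1.6e-05). The 3 DMF libraries of 48 h were close to the control level of 6 h, and the controls of 48 h were the highest of the series.

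ALDOC, a brain-type aldolase, had 433, 498 and 481 CPM in control at 48 h and 243, 287 and 307 CPM in DMF. The groups did not overlap (log2 -0.75, SE 0.27, adjusted p = 0.048), and DESeq2 made no call. This call sat at the threshold and was kept without 1 library only where that library was any control of 12 h, or DMF 12 h replicate 1 or 3 (highest adjusted p = 0.15 over the other 19). At 24 h the order was the opposite, with 84.0, 89.3 and 76.4 CPM in control and 135, 141 and 137 CPM in DMF. All 24 libraries gave no call at 24 h (log2 0.72, adjusted p = 0.087), and the 22 did (log2 0.73, adjusted p = 3.9e-10).

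PFKL, the liver-type phosphofructokinase, had 282, 324 and 306 CPM in control at 48 h and 205, 214 and 220 CPM in DMF. ENO1, the main enolase, had 3410, 3740 and 3340 CPM in control and 2530, 2640 and 2650 CPM in DMF. Neither pair of groups overlapped, yet all 24 libraries called neither (log2 -0.51, adjusted p = 0.14 for PFKL and log2 -0.42, adjusted p = 0.29 for ENO1). The 22 libraries called both lower (adjusted p = 9.9e-10 and 3.2e-10), in TPM as well (log2 -0.27 and -0.19).

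The other falls at 48 h were of at most 1.29-fold. HK1, the constitutive hexokinase, had 273, 294 and 285 CPM in control and 229, 241 and 226 CPM in DMF (log2 -0.29, SE 0.08, adjusted p = 0.0083). In TPM its 48 h groups overlapped. The 22 libraries also called HK1 lower at 6 h (log2 -0.14, adjusted p = 0.008) and 12 h (log2 -0.15, adjusted p = 0.012). TPM in them called it at both times too (log2 -0.27 and -0.26, adjusted p = 8e-05 and 0.00089). PGAM1, the phosphoglycerate mutase, had 1160, 1310 and 1180 CPM in control and 998, 1010 and 1020 CPM in DMF (log2 -0.27, adjusted p = 0.012). Its call was lost without control 48 h replicate 2 or DMF 48 h replicate 2 (highest adjusted p = 0.093). LDHB, which favours the direction from lactate to pyruvate, had 1000, 1170 and 997 CPM in control and 831, 834 and 787 CPM in DMF (log2 -0.37, adjusted p = 0.039; not called by DESeq2). That call was kept only in 5 of the 24 fits without 1 library (highest adjusted p = 0.22), which were those without control 6 h replicate 1 or 2, control 12 h replicate 3, or DMF 12 h replicate 1 or 3. In all of these genes control lay above DMF in every library.

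LDHA, which favours lactate production, was the enzyme that fell at 24 h as well. It had 1860, 1970 and 1810 CPM in control at 24 h and 1470, 1420 and 1440 CPM in DMF, a 1.3-fold fall (log2 -0.38, SE 0.08, adjusted p = 0.0035) that TPM in the 22 libraries shared (log2 -0.43, adjusted p = 4.9e-09). At 48 h it had 2140, 2270 and 2010 CPM in control and 1700, 1790 and 1810 CPM in DMF (log2 -0.28, adjusted p = 0.017), where TPM gave no call (log2 -0.04) and the call was lost without control 48 h replicate 2 or any of the 3 DMF libraries of 48 h (highest adjusted p = 0.12). At 12 h PGAM1 rose (log2 0.23, adjusted p = 0.042) and PFKP, the platelet-type phosphofructokinase, fell (log2 -0.2, adjusted p = 0.036). Both calls were near the threshold, and 21 and 17 of the 24 fits without 1 library lost them (highest adjusted p = 0.18 and 0.2). The 22 libraries called both in CPM, and TPM in them called PFKP but not PGAM1. For PFKP they gave log2 -0.24 (adjusted p = 9.6e-05), and -0.36 in TPM (adjusted p = 3.1e-06). PFKP was lower in every DMF library at 24 h as well, called in the 22 libraries only (log2 -0.14, adjusted p = 0.0024; TPM log2 -0.19, adjusted p = 0.00027).

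The remaining enzymes were not called at any time with all 24 libraries. GAPDH, the enzyme that DMF can modify, was the most abundant member, with 11400 ± 205 TPM in control at 6 h (SD, n = 3). It had 7210, 7470 and 7310 CPM in control at 6 h and 8230, 8180 and 8310 CPM in DMF. At 48 h it had 8540, 9990 and 8810 CPM in control and 7390, 7900 and 7970 CPM in DMF. The DMF libraries were thus above control early and below it late (log2 0.17, adjusted p = 0.91, and log2 -0.23, adjusted p = 0.72). In the 22 libraries both differences were called (adjusted p = 0.0024 and 5.4e-05), and in TPM neither was (log2 0.03 and 0.0). HK2, GPI, PFKM, ALDOA, TPI1 and PKM had log2 fold changes between -0.19 and -0.01 at 48 h. In CPM the 22 libraries called GPI, ALDOA, TPI1 and PFKP lower then (log2 -0.10, -0.14, -0.19 and -0.14, adjusted p = 0.049, 0.011, 0.003 and 0.0025). In TPM the direction of some turned: HK2, GPI, PFKM, PFKP, ALDOA and PKM were called higher at 48 h in the 22 libraries, by 0.1 to 0.22, beside the shift of 0.17 in the median gene. Before 48 h, the 22 libraries called ALDOA higher at 6, 12 and 24 h, in both CPM and TPM. In both they called GAPDH higher at 12 and 24 h, and PFKM, TPI1 and PKM at 24 h. HK2 was called lower at 24 h in both. ALDOA had 1600, 1640 and 1540 CPM in control at 24 h and 2010, 1910 and 1920 CPM in DMF. GAPDH, ENO1, PGK1, TPI1, LDHA, LDHB and PGAM1 have near-identical pseudogenes or copies, PGAM4 among them, so part of their reads may belong elsewhere.

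The regulators changed in both directions at 48 h, where 3 of 7 fell and 2 rose (12.5% and 13.3% of genes tested). PFKFB4, which raises or lowers fructose 2,6-bisphosphate and is known as a hypoxia-induced isoform, fell the most of the enzymes that act on this activator (GRCh38 chr3:48517684-48562015, minus strand). It had 146, 150 and 149 CPM in control at 48 h and 42.9, 50.6 and 50.8 CPM in DMF. There was no overlap, and the fall was 3.07-fold (log2 -1.62, SE 0.22, adjusted p = 1.6e-05), with log2 -1.36 in TPM in the 22 libraries. At 24 h PFKFB4 had 37.9, 40.5 and 30.1 CPM in control and 22.8, 30.0 and 25.1 CPM in DMF. DMF was lower in every library but not called (log2 -0.48, adjusted p = 0.16), and it was called in the 22 libraries (log2 -0.47, adjusted p = 0.0011). At 12 h the values were 7.01, 10.7 and 6.56 CPM in control and 3.98, 6.82 and 8.9 CPM in DMF. The 12 h difference was log2 -0.31 (adjusted p = 0.39) with all libraries and log2 -0.73 (adjusted p = 0.0042) without the replicate 3 libraries.

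PFKFB2, the heart-type isoform, changed the other way from a low level. It had 2.58, 2.59 and 3.23 CPM in control at 48 h and 5.78, 7.25 and 6.71 CPM in DMF, all above control. The rise was 2.39-fold (log2 1.26, SE 0.33, adjusted p = 0.0068). At 24 h it had 3.46, 3.57 and 3.34 CPM in control and 5.26, 5.58 and 5.19 CPM in DMF, which was called in the 22 libraries only (log2 0.63, adjusted p = 2e-05). PFKFB3, the inducible isoform with the strongest kinase activity, was not called with all 24 libraries, with 85.4 ± 3.38 CPM in control and 100 ± 3.06 CPM in DMF at 48 h (SD, n = 3; log2 0.23, adjusted p = 0.7). The 22 libraries called it higher (log2 0.25, adjusted p = 0.0019).

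TIGAR, a phosphatase that lowers fructose 2,6-bisphosphate, rose at 48 h (GRCh38 chr12:4307763-4354593, plus strand). It had 14.4, 13 and 12.0 CPM in control at 48 h and 33.7, 33.2 and 31.9 CPM in DMF. The 3 DMF libraries lay close together and far above control, a 2.5-fold rise (log2 1.32, SE 0.11, adjusted p = 2.7e-08). At 6, 12 and 24 h TIGAR was not called, with log2 fold changes of 0.09, 0.22 and 0.1.

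PDK1, the pyruvate dehydrogenase kinase known for its induction in hypoxia, fell at 24 h and 48 h. It had 57.5, 65.4 and 58.4 CPM in control at 24 h and 30.1, 30.4 and 29.4 CPM in DMF. This was a 2.02-fold fall (log2 -1.01, SE 0.18, adjusted p = 0.00068). The 48 h values were 118, 106 and 114 CPM in control and 60.8, 54.1 and 55.9 CPM in DMF, a 1.98-fold fall (log2 -0.98, SE 0.18, adjusted p = 0.00043). At 12 h the values were 34.9, 33.2 and 18.2 CPM in control and 26.2, 22.9 and 15.9 CPM in DMF, not called with all libraries (log2 -0.41, adjusted p = 0.14) and called in the 22 (log2 -0.47, adjusted p = 6.2e-06). The 6 h values were within 35.2 to 37.2 CPM in control and 37.4 to 38.8 CPM in DMF.

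PDK2 and PDK3 gave smaller differences than PDK1 at 48 h. PDK2 had 11.4, 11.6 and 11.3 CPM in control at 48 h and 14.6, 15.6 and 15.2 CPM in DMF, higher in every library but called in the 22 libraries only (log2 0.43, adjusted p = 0.00061). At 6 h PDK2 was lower in every DMF library, with 8.04, 7.55 and 7.33 CPM against 6.07, 5.91 and 6.56 CPM (log2 -0.31, adjusted p = 0.69; called in the 22 libraries, adjusted p = 0.029). PDK3 fell at 48 h, from 53.4, 48.3 and 58.7 CPM in control to 42.3, 45.4 and 42.1 CPM in DMF (log2 -0.3, adjusted p = 0.033). The PDK3 call was lost without control replicate 1 or 3 of 48 h or DMF 48 h replicate 1 (highest adjusted p = 0.17).

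**Figure D2:**
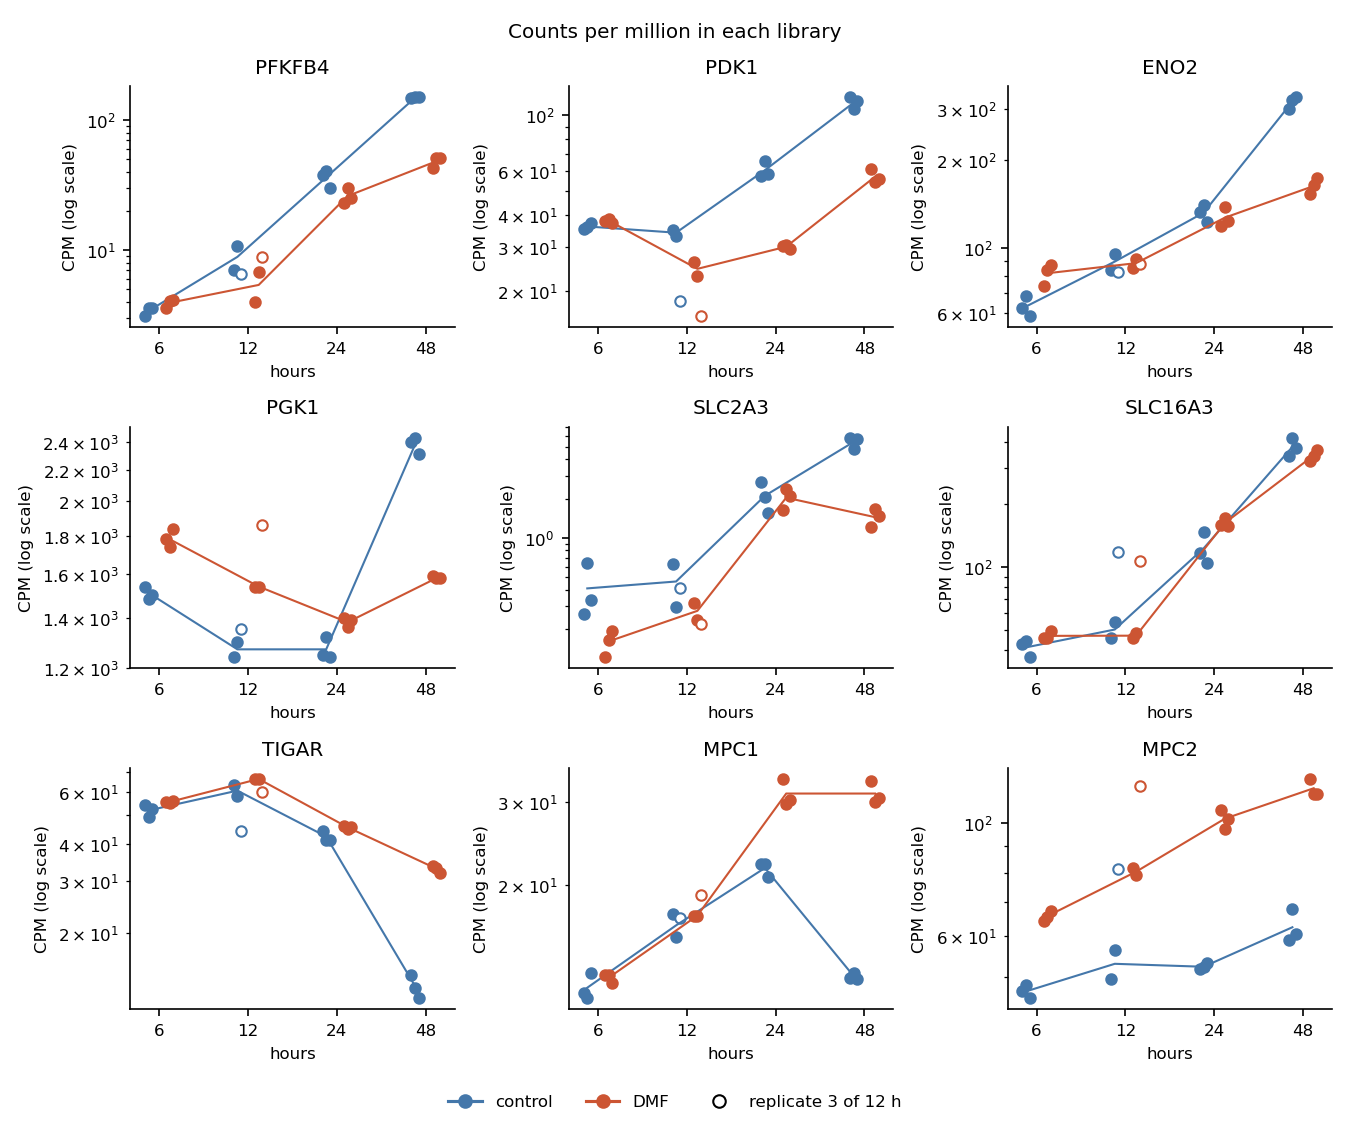
CPM of 9 members (log axis) in each of the 24 libraries against time in hours, control in blue and DMF in orange, with lines through group means and open circles for the replicate 3 libraries of 12 h, which the lines leave out. The control points of PFKFB4, PDK1, ENO2 and PGK1 climb above DMF by 48 h, those of TIGAR and MPC1 drop below it, and MPC2 is higher in DMF from 6 h.

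At pyruvate entry, both carrier genes rose, and of the dehydrogenase genes only PDHB was called lower at 6 and 12 h with all 24 libraries. MPC1 and MPC2 encode the 2 subunits of the mitochondrial pyruvate carrier. MPC2 had 46.8, 48.2 and 45.4 CPM in control at 6 h and 64.4, 65.4 and 67.3 CPM in DMF. The groups did not overlap, and MPC2 rose 1.4-fold (log2 0.49, SE 0.15, adjusted p = 0.042). That call sat at the threshold in all 24 libraries and was lost in 20 of the 24 fits without 1 library (highest adjusted p = 0.2). In the fits without control replicate 1 or 3 of 12 h or DMF 12 h replicate 1 or 3 it was kept, and the 22 libraries gave adjusted p = 1.6e-08.

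At 12 h MPC2 had 49.6, 56.3 and 81.2 CPM in control and 81.6, 79.1 and 118 CPM in DMF. In CPM the control library of replicate 3 reached the DMF values of replicates 1 and 2 (log2 0.57, SE 0.15, adjusted p = 0.011). The call was lost without control 12 h replicate 1 or 2 (highest adjusted p = 0.12). In TPM the groups did not overlap, with 55.5, 53.7 and 38.2 TPM in control and 70.2, 65.6 and 65.2 TPM in DMF. Every TPM fit kept the call. At 24 h MPC2 had 51.7, 52.2 and 53.1 CPM in control and 106, 97.2 and 102 CPM in DMF. At 48 h it had 59.0, 67.9 and 60.5 CPM in control and 122, 114 and 114 CPM in DMF. DMF was thus well above every control at both times, by 1.95-fold (log2 0.96, adjusted p = 0.00019) and 1.87-fold (log2 0.9, adjusted p = 0.00017).

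MPC1 was called from 24 h. At that time it had 22.1, 22.1 and 20.8 CPM in control and 33.5, 29.7 and 30.3 CPM in DMF, a 1.44-fold rise (log2 0.52, SE 0.08, adjusted p = 0.00014). The 48 h values were 12.7, 13 and 12.6 CPM in control and 33.1, 30.0 and 30.5 CPM in DMF, a 2.43-fold rise (log2 1.28, SE 0.08, adjusted p = 1.6e-09). The DMF libraries of 48 h stayed at the level of 24 h and the controls were back near their 6 h level of 11.5 to 13 CPM. At 6 and 12 h MPC1 was not called (log2 0.07 and 0.1). The 48 h calls of MPC1 and MPC2 were kept under every alternative tried (highest adjusted p = 0.00029 and 0.0032).

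PDHA1 and PDHB encode the subunits of pyruvate dehydrogenase itself, and DLAT the acetyltransferase core of the complex. PDHB had 62.6, 58.2 and 62.1 CPM in control at 6 h and 42.2, 44.6 and 43.4 CPM in DMF. It fell 1.41-fold without overlap (log2 -0.49, SE 0.1, adjusted p = 0.0025). At 12 h PDHB had 66.0, 69.0 and 81.1 CPM in control and 50.0, 54.4 and 63.8 CPM in DMF (log2 -0.36, adjusted p = 0.015), a call lost without DMF 12 h replicate 1 or 2 (highest adjusted p = 0.13). At 24 h the groups overlapped, with 53.9 to 59.2 CPM in control and 57.4 to 64.2 CPM in DMF. PDHB was not called at 24 or 48 h.

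PDHA1 had 136, 137 and 138 CPM in control at 6 h and 140, 149 and 139 CPM in DMF, and at 48 h 122, 146 and 119 CPM against 139, 148 and 145 CPM. In CPM, DMF lay just above control at 6 h and the groups overlapped at 48 h. In TPM every DMF library was below every control at 6 h, with 79.5, 87.9 and 77.2 TPM against 90.0, 91.6 and 95.2 TPM (log2 -0.18, adjusted p = 0.0091 in the 22 libraries), and above at 48 h (log2 0.32). No time was called with all 24 libraries, and the 22 called 48 h (log2 0.17, adjusted p = 0.0075). DLAT had 129, 120 and 117 CPM in control at 48 h and 128, 127 and 123 CPM in DMF, also without a call (log2 0.05, adjusted p = 0.93). At 24 h DLAT was lower in every DMF library, with 191, 187 and 193 CPM against 174, 165 and 163 CPM, and was called in the 22 libraries only (log2 -0.18, adjusted p = 0.00022). It was lower in every DMF library at 6 h too, with 209, 207 and 217 CPM in control and 202, 200 and 198 CPM in DMF. At 12 h DLAT had 236, 238 and 96.6 CPM in control and 225, 212 and 113 CPM in DMF. The 22 libraries called it lower at 12 h in both CPM and TPM.

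Control cultures changed over the same hours, mostly upward for these genes. From 6 to 48 h, 17 of the 33 rose in control and 3 fell, where 21.6% and 20.4% of genes tested did so, and the median log2 fold change was 0.54, beside 0.01 over all genes. The 22 libraries called 25 higher and 5 lower (38.2% and 36.8%). PFKFB4 rose 43.5-fold (log2 5.44, SE 0.26, adjusted p = 2e-11), from 3.11, 3.56 and 3.56 CPM at 6 h to the 48 h values given above. SLC2A3 rose 13.5-fold (log2 3.76), SLC16A3 9.17-fold (log2 3.2), ENO2 5.03-fold (log2 2.33), PDK1 3.12-fold (log2 1.64) and PDK3 2.72-fold (log2 1.45). SLC16A3 went from 42.6, 44.0 and 37.0 CPM at 6 h to 341 to 417 CPM at 48 h, with no overlap. TIGAR fell 3.96-fold (log2 -1.98, SE 0.11, adjusted p = 6.2e-11), from 54.1, 49.5 and 52.6 CPM, and DLAT and SLC16A1 fell by 0.79 and 0.71 on the log2 scale. ALDOC fell to 24 h (log2 -1.81, adjusted p = 0.00016) and rose to 48 h (log2 0.69 against 6 h, adjusted p = 0.047), the latter a call lost in 20 of the 24 fits without 1 library (highest adjusted p = 0.14).

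In DMF cultures, 14 members rose from 6 to 48 h and 3 fell (21.2% and 18.4% of genes tested), and the 22 libraries called 23 higher and 8 lower (37.4% and 35.7%). The 2 changes share no library, and the test of their difference is the effect of DMF at 48 h minus that at 6 h. It called ENO2, PDK1, PFKFB4, PGAM1 and PGK1 lower and MPC1 and TIGAR higher, where 5.88% and 6.47% of genes were called. PFKFB4 rose 12.3-fold in DMF (log2 3.62) against 43.5-fold in control, a difference of log2 -1.83 (SE 0.31, adjusted p = 0.0006). ENO2 rose 1.99-fold in DMF (log2 1.0), a difference of -1.34 (SE 0.13, adjusted p = 1.8e-06). PDK1 rose 1.49-fold (log2 0.58), a difference of -1.06 (SE 0.26, adjusted p = 0.0087). PGK1 was not called over time in DMF (log2 -0.17, adjusted p = 0.096; 0.00015 in the 22 libraries), a difference of -0.83 (SE 0.11, adjusted p = 5.7e-05).

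PGAM1 differed by -0.48 (adjusted p = 0.006), which TPM did not call in the 22 libraries (log2 -0.1). TIGAR fell 1.69-fold in DMF (log2 -0.76) and differed by 1.23 (SE 0.15, adjusted p = 1.4e-05). MPC1 rose 2.45-fold in DMF (log2 1.29), with log2 0.08 in control, and differed by 1.21 (SE 0.11, adjusted p = 1.3e-06). The 22 libraries called 6 members higher and 19 lower at 48 minus 6 h (26.7% and 24.2% of genes), and TPM in them 15 and 8 (52.3% and 9.35%), where the median gene was at 0.28. SLC2A3 and SLC16A3 rose in both treatments (log2 3.2 and 2.88 in DMF) and the differences were not called (adjusted p = 0.59 and 0.76), though TPM in the 22 libraries called SLC2A3 (log2 -0.79, adjusted p = 7.1e-05). Tested over all 4 times jointly, the effect of DMF differed between times for 9 members, with 15% of genes called, and in the 22 libraries for 32 of 33, with 69.1% of genes called. TPM in the 22 libraries called 27 of 33, with 69.9% of genes.

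**Figure D3:**
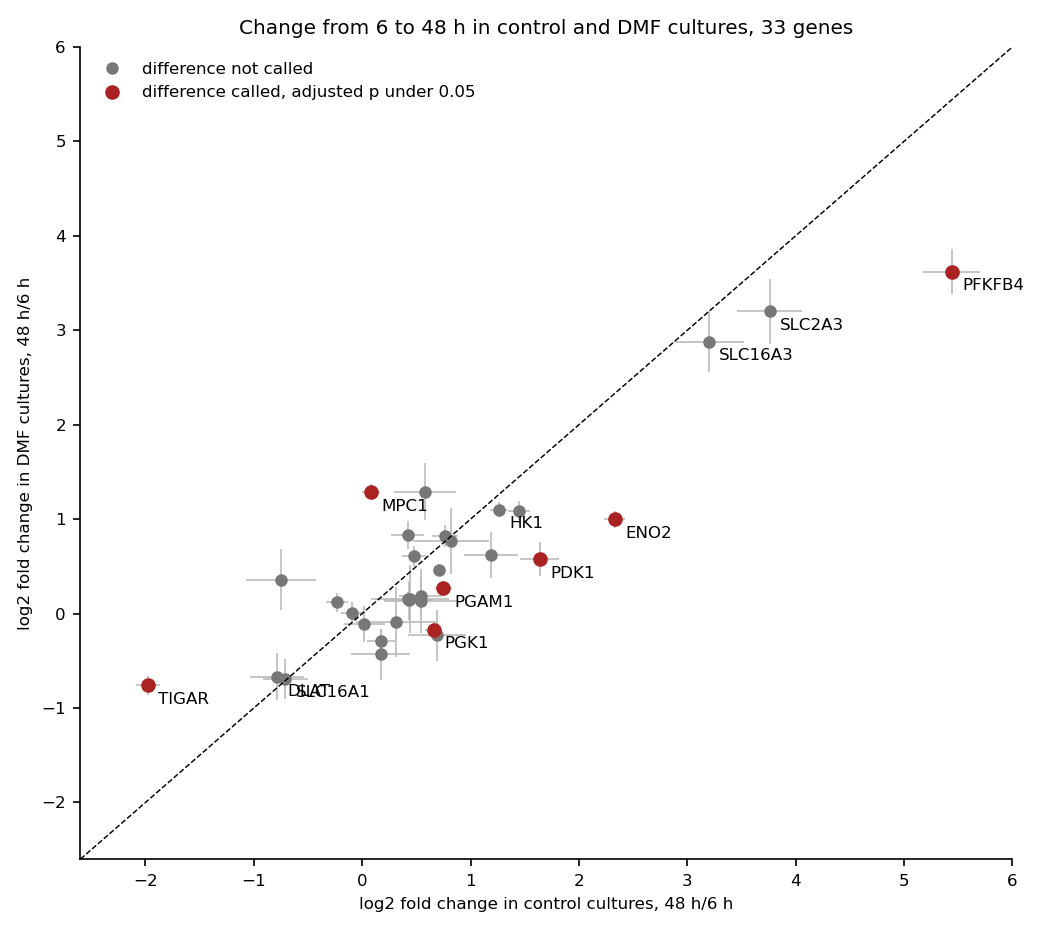
Log2 fold change from 6 to 48 h in control (horizontal axis) and in DMF (vertical axis) for the 33 genes, with standard errors as bars, the line of equal change dashed, and red points where the difference had an adjusted p under 0.05. PFKFB4, ENO2, PDK1, PGK1 and PGAM1 lie below the line, TIGAR and MPC1 above it, and SLC16A3 and SLC2A3 near its upper right part.

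Isoenzymes of 1 step shifted in their share of the family's TPM, which is described here without a test. Of the TPM of the 3 PFKFB genes, PFKFB4 held 6.28% ± 0.398 in control at 6 h (SD, n = 3) and 63.0% ± 1.77 at 48 h. In DMF it held 6.28% ± 0.675 and 33.5% ± 2.0. PFKFB3 was thus still the main isoform in DMF at 48 h, with 64.0% ± 2.23, and not in control, with 36.4% ± 1.74. The family sum was 108 ± 8.46 TPM in control at 48 h and 77.2 ± 3.51 TPM in DMF.

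Among the kinases of pyruvate dehydrogenase, PDK1 held 64.8% ± 1.56 of the TPM in control at 48 h and 49.3% ± 1.02 in DMF. PDK2 held 12.0% ± 1.27 in control and 23.7% ± 0.765 in DMF, and PDK3 23.2% ± 1.28 and 26.9% ± 1.49. The summed TPM of the 3 kinases was 91.2 ± 11 in control and 71.4 ± 2.56 in DMF. For the pyruvate carrier the sum and the makeup are given together. MPC1 and MPC2 together had 74.5 ± 3.09 TPM in control at 6 h and 80.6 ± 1.67 TPM in DMF, and 85.3 ± 1.94 and 206 ± 14.7 TPM at 48 h, of which MPC1 held 30.3% ± 0.849 and 36.7% ± 1.11.

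The monocarboxylate transporters changed place with time in both treatments. SLC16A1 held 74.1% ± 1.51 of their TPM in control at 6 h and 16% ± 1.57 at 48 h, and in DMF 74.7% ± 1.05 and 20.0% ± 1.15, SLC16A3 making up the rest. Lactate dehydrogenase stayed divided, with LDHA at 48.0% ± 0.616 in control at 6 h and 52.4% ± 1.14 at 48 h, and at 46.3% ± 0.531 and 54.0% ± 1.51 in DMF. At 24 h LDHA held 47.8% ± 1.12 in control and 42.6% ± 0.919 in DMF.

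**Figure D4:**
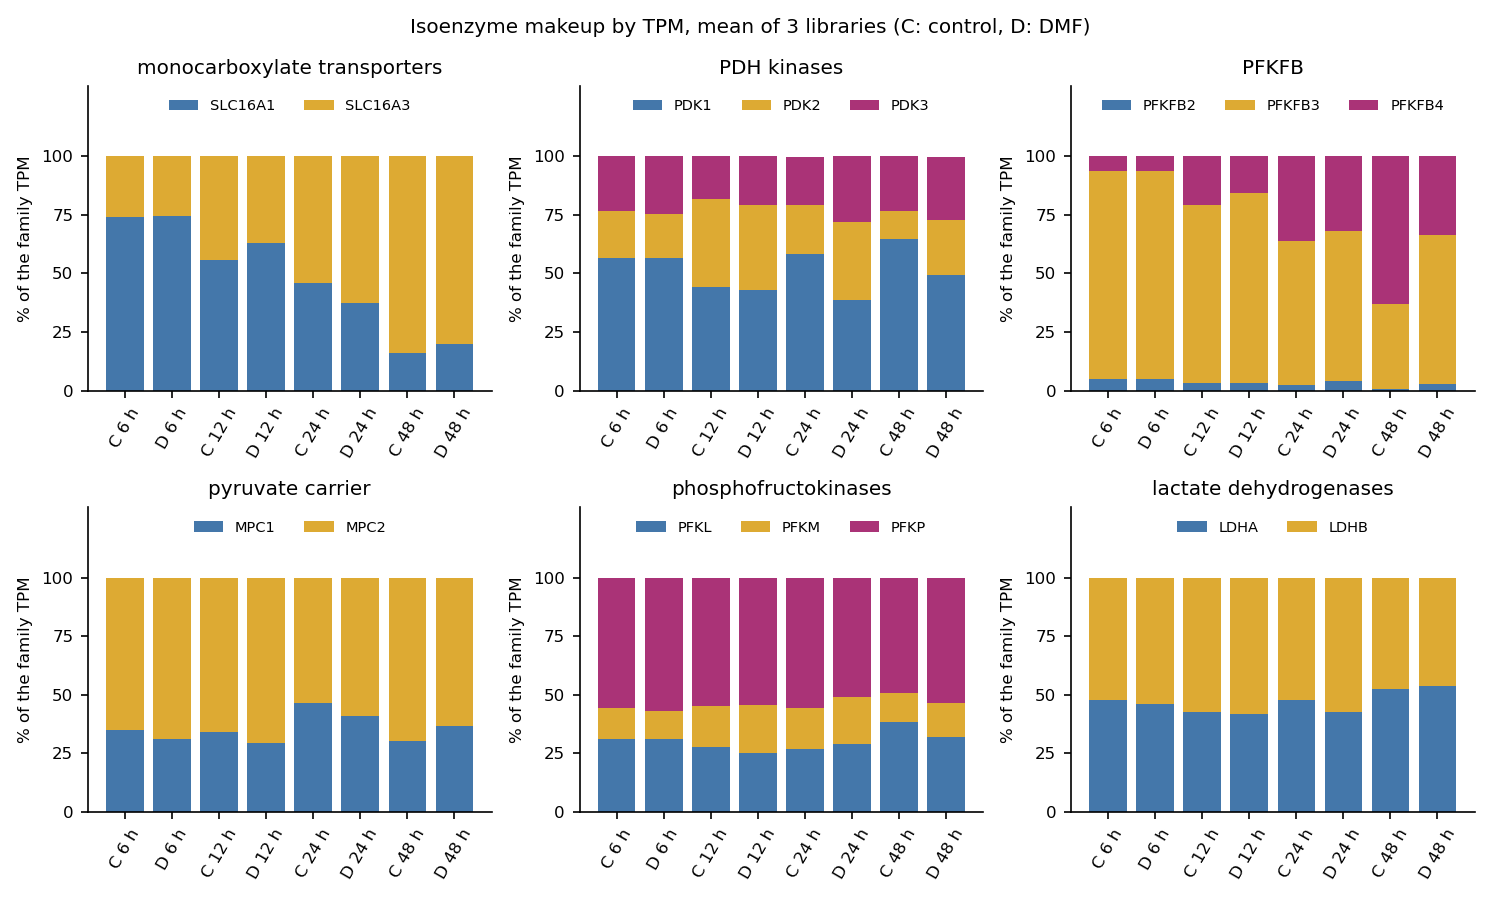
Share of each isoenzyme in the summed TPM of its family (vertical axis, percent; bars stacked, mean of 3 libraries, no error shown) for 6 families in the 8 groups, control (C) and DMF (D) at each time. PFKFB4 takes 63.0% of its family in control at 48 h and 33.5% in DMF, and SLC16A3 overtakes SLC16A1 in both treatments; the 12 h bars include the replicate 3 libraries that stood apart.

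Other genes of the same processes were counted by list. Of 18 further glucose and monocarboxylate transporters and their chaperones, 14 were tested. At 48 h 3 rose and 4 fell, where 13.3% and 12.5% of all genes tested did so. SLC2A6, a lysosomal hexose carrier, changed direction with time, from log2 -1.37 at 6 h (adjusted p = 5.5e-05) to 1.9 at 48 h (SE 0.19, adjusted p = 4.6e-07). SLC16A6 rose at 48 h (log2 1.63, SE 0.24, adjusted p = 5.2e-05). SLC16A9 fell at 48 h (log2 -1.22, adjusted p = 0.0042), and SLC2A4, the insulin-responsive glucose carrier, at 6 h (log2 -2.11, adjusted p = 0.011), which was not called without DMF 6 h replicate 1 (adjusted p = 0.06).

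Of 30 further genes of glycolysis, gluconeogenesis and lactate metabolism, 16 were tested. At 48 h 2 rose and 2 fell, near the 13.3% and 12.5% of all genes tested. BPGM, which diverts a glycolytic intermediate to 2,3-bisphosphoglycerate, fell at 6 h (log2 -0.44, adjusted p = 0.001), and PGM1, which links glycogen to glycolysis, at 48 h (log2 -0.57, adjusted p = 0.002). Mitochondrial PCK2 rose at 6 h (log2 0.79, adjusted p = 0.0091), a call lost without control 6 h replicate 3 or DMF 6 h replicate 1 or 3 (highest adjusted p = 0.064). MINPP1 fell at 6 h (log2 -0.39, adjusted p = 0.028), a call lost without control replicate 1 or 2 of 6 h or DMF 6 h replicate 2 (highest adjusted p = 0.13).

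Of 10 further genes of the pyruvate dehydrogenase complex, its lipoylation and its phosphatases, 8 were tested. At 48 h 0 rose and 0 fell in edgeR, where 13.3% and 12.5% of all genes tested did so. The counts were 0 and 0 also at an unadjusted p under 0.05 and in DESeq2. The 22 libraries called 2 higher and 2 lower (33.6% and 30.9% of genes). LIPT1, a lipoyltransferase, fell at 24 h (log2 -0.54, adjusted p = 0.025), not called without control replicate 1 or 3 of 24 h or DMF 24 h replicate 1 or 3 (highest adjusted p = 0.15). Of 18 regulators of glucose use, 13 were tested, and 2 rose and 2 fell at 48 h, beside the same 13.3% and 12.5% of all genes. MYC, a transcriptional activator of many glycolytic genes, was not called at 6 h (log2 0.03) and fell at 24 and 48 h, by 0.73 and 1.02 on the log2 scale (adjusted p = 1.2e-06 and 6.1e-09). HIF1A was not called with all 24 libraries, with log2 -0.26 at 48 h (SE 0.37, adjusted p = 0.68; 9.6e-05 in the 22 libraries). MLXIP, a glucose-sensing transcription factor, rose at 48 h (log2 0.39, adjusted p = 0.0013). MTOR rose too (log2 0.9, adjusted p = 0.043), a call at the threshold that 8 of the 24 fits without 1 library lost (highest adjusted p = 0.12), which left out control 6 h replicate 1, control 6 h replicate 2 or any library of 48 h.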

How the data were processed

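RNA-seq of 24 HBL1 libraries, 3 for each treatment and time, was read from 1 gene table per library. The authors deposited the estimated count (expected count) of each gene from RSEM, with TPM and FPKM computed from it, per the file headers; FPKM was not used. HISAT, HISAT2, RSEM and GRCh38.p12 are named, without versions or order, in the submitters' processing notes; the strand setting and annotation release are not given in the sources used here. The deposited effective length, in bases, served only to describe libraries.

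Expected counts were rounded and analysed with edgeR 4.0.16 in R 4.3.3: filterByExpr, which kept 13419 genes, TMM scaling, 8 group means over all 24 libraries with 16 residual degrees of freedom, the quasi-likelihood test, and Benjamini-Hochberg adjustment over all genes tested, with calls at an adjusted p under 0.05. The 22 libraries other than both replicate 3 libraries of 12 h were fitted likewise, with 13606 genes. TPM were tested with limma 3.58.1 on log2(TPM + 1), so fold changes of low genes are understated there. DESeq2 1.42.0 was an alternative. The procedure was tested on simulated data. The genes and lists were chosen with earlier results of these data known. Members with the largest changes in each role, up to 5, are given by library, as are the other called members; genes of other lists were named by smallest p, up to 4 a list. Some genes of these lists are not reported here. Promoters are RefSeq's on GRCh38.p14, gene spans those of GENCODE on GRCh38. Other alternatives were other size factors, no low-count filter, a replicate block, only the groups compared, other TPM settings, and leaving out each library; the TPM fit of the 22 libraries, the block within 12 h and the tests at 48 minus 6 h were added after seeing the data. Comparisons with the same control libraries are not independent.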

Additional observations from a re-analysis of the deposited data

Results flagged for a closer look

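The effect of DMF differed between 6, 12, 24 and 48 h for 9 of the 33 genes, by edgeR's joint test of the 3 differences between times over all 24 libraries, with adjustment over all genes. The adjusted p was 1.9e-06 for MPC1, 8.9e-06 for ENO2, 1.8e-05 for TIGAR, 3.9e-05 for PGK1, 0.0025 for PFKFB4, 0.0079 for PGAM1, 0.011 for SLC2A3, 0.012 for PDK1 and 0.035 for PDHB. ENO2, PGK1 and PGAM1 were higher in DMF in every library at 6 h and lower in every library at 48 h. In TPM the 6 h order of ENO2 overlapped, and so did the 48 h orders of PGAM1 and PDHB. SLC2A3 was lower in every DMF library at 6 and 48 h and overlapped at 12 and 24 h. PDHB was lower in every DMF library at 6, 12 and 48 h and overlapped at 24 h. All 4 effects rest on the same fit, and the 12 h effects include the replicate 3 libraries that stood apart.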

How the results depend on the processing

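Leaving out both replicate 3 libraries of 12 h raised the counts of members called in DMF to 15 higher and 4 lower at 6 h, 13 higher and 6 lower at 12 h, 12 higher and 7 lower at 24 h, and 9 higher and 18 lower at 48 h; to 32 whose effect differed between times; to 6 higher and 19 lower at 48 minus 6 h; and to 5 lower in control at 48 h than at 6 h. Fitting only the groups compared gave 17 higher and 4 lower at 6 h (28.7% and 28.9% of genes), 0 and 0 for 12 h (0% and 0%), 12 higher and 6 lower at 24 h (31.1% and 30.4%), 7 higher at 48 h (30%), and 5 lower over time in control (37%). DESeq2 size factors gave 1 higher at 6 h and 1 lower at 12 h, no low-count filter gave 1 lower at 6 h and 1 lower at 12 h, and DESeq2 gave 4 higher and 1 lower at 6 h and 15 whose effect differed between times. On log2(TPM + 1), log2(TPM + 0.1), and log2(TPM + 1) with a mean TPM of at least 1, all with 24 libraries, 0, 0 and 0 members were higher and 0, 0 and 0 lower at 6 h, 2, 2 and 2 higher and 0, 0 and 1 lower at 12 h, 0, 0 and 0 lower at 24 h, 5, 5 and 4 lower at 48 h, 5, 5 and 4 higher at 48 minus 6 h, and 1, 1 and 1 lower over time in control. A pseudocount of 0.1 gave 5 members whose effect differed between times and 2 lower at 48 minus 6 h, and the TPM minimum 3 lower. Log2(TPM + 1) in the 22 libraries gave 4 higher and 6 lower at 6 h, 11 lower at 12 h, 10 higher and 9 lower at 24 h, 16 higher at 48 h, 27 differing between times, 15 and 8 at 48 minus 6 h, and 5 lower over time in control.

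The sign of some small effects turned in that TPM fit: PDHA1 at 6 h to -0.18; PFKM, LDHB and PDK3 at 12 h to -0.16, -0.14 and -0.4; GAPDH at 12 h to 0.17; HK2, GPI, PFKM, PFKP, ALDOA and PKM at 48 h to 0.19, 0.12, 0.22, 0.1, 0.1 and 0.2; and HK1, PFKP, PKM and PFKFB3 at 48 minus 6 h to 0.21, 0.14, 0.26 and 0.27. GAPDH at 12 h was 0.28 in the 22 libraries of edgeR and 0.85 and -0.60 without replicate 3 of control or of DMF at 12 h. The cause was not tested.

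The replicate block gave 1 member lower at 6 h, ending the call of SLC2A3, and left 212 of 214 results on their side of the threshold. Same-numbered libraries correlated between -0.09 and 0.07 at 6, 24 and 48 h. They were compared as deviations from a group mean of 3 libraries, where counting noise can hide pairing, so pairing is not excluded. At 12 h they correlated at 0.93, 0.93 and 0.97, and replicates 1 and 2 as highly across numbers (0.92 and 0.93), both replicate 3 libraries being the ones apart; a block fitted to the 12 h libraries alone, chosen after seeing the data, gave 3 members higher and 2 lower.

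Without 1 library at a time, the counts of members higher and lower in DMF ranged at 6 h from 0 to 4 and 1 to 2, for 12 h from 2 to 11 and 0 to 4, for 24 h from 2 to 5 and 2 to 2, and for 48 h from 4 to 4 and 7 to 14. Those differing between times ranged from 7 to 17, those at 48 minus 6 h from 2 to 4 higher and 5 to 10 lower, and those over time in control from 14 to 21 higher and 3 to 5 lower. Low counts limit SLC2A3, whose lowest expected count was 4, most of all at 6 h.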
